A study of Rattus norvegicus with 8 samples.

Results

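The genes described here are the semaphorins, their plexin and neuropilin receptors, and genes that share their names or their signalling. Members were all genes whose symbol begins with Sema3 to Sema7, Plxna to Plxnd, Plxdc, Nrp1, Nrp2, Neto1, Neto2, Crmp, or Dpysl followed by 1, 2, 4 or 5, with Crmp1 left out. The rule used names and no measured value. It found 34 genes, read by 58 probe sets, among 14217 genes with a single symbol and 31042 probe sets tested. They were 17 semaphorins, 8 plexins, 2 neuropilins, 3 collapsin response mediator proteins (CRMPs, the Dpysl genes), 2 plexin domain-containing receptors (Plxdc1 and Plxdc2) and 2 Neto genes. Sema7a and Plxnb3 had no probe set with a single symbol and are not covered. No filter on low values was set, so all 58 probe sets entered the test.

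RNA came from rat brain cells sorted at postnatal day 7 by a surface epitope. A2B5+ cells carry gangliosides typical of glial progenitors and were labelled oligodendrocyte progenitors. GalC+ cells carry galactocerebroside, a myelin lipid, and were labelled oligodendrocytes. Each population had 4 biological replicates on 1 array each, every replicate being a pool of 1 litter of 10 pups, so that differences between pups cannot be seen. The labels name no genetic change, strain or treatment for either population. A value is the ratio of a probe set's signal to its median over the 8 arrays, so a ratio of 1 is the middle of that probe set's own values and levels cannot be compared between genes. Differences are on the log2 scale, GalC+ minus A2B5+, with the standard error (SE) and n = 4 and 4. A probe set was called higher or lower where limma's adjusted p was under 0.05. In such bulk samples, fewer cells of a type and less RNA per cell cannot be told apart.

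Semaphorins are ligands that steer axons and migrating cells. Class 3 members are secreted and mostly act through a complex of a neuropilin, which binds the ligand, and a plexin, which signals. Classes 4, 5 and 6 span the membrane and bind plexins directly. Plexins act on small GTPases, and CRMPs relay semaphorin signals to microtubules. In the oligodendrocyte lineage, Sema3a is known as a repellent and Sema3f as an attractant of progenitors, and Sema4d and Sema5a are known as proteins of oligodendrocytes that limit axon growth.

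The family was split between the populations. Sema4d was 16.3-fold higher in GalC+ cells, Sema3e 3.94-fold and the leading probe set of Sema5a 3.07-fold. Dpysl5 was 3.59-fold lower in GalC+ cells, Sema3c 2.69-fold and the leading probe set of Plxna2 2.55-fold. Of the 58 member probe sets, 15 were higher, 15 were lower and 28 did not pass. The called share was 51.7%, against 26.8% of all probe sets and 29.7% of those with a single gene symbol. In each direction it was 25.9%, against 15.4% higher and 14.3% lower among single-symbol probe sets. The values of the populations did not overlap in 31 member probe sets (53.4%, against 31.9%), and 11 were called with a difference of at least 2-fold (19.0%, against 5.87%). The rule on names was chosen with earlier results of these data known, so the member shares may not be independent of the values. The median difference was 0.05 for members and 0.04 for all probe sets, and the median absolute difference was 0.42 and 0.17. By gene, 10 of the 34 members had a probe set that was higher, 11 had one that was lower, 13 had no call, and none had calls in both directions. Among all 14217 single-symbol genes, 2668 had a higher probe set, 2552 a lower one and 9016 no call.

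**Figure D1:**
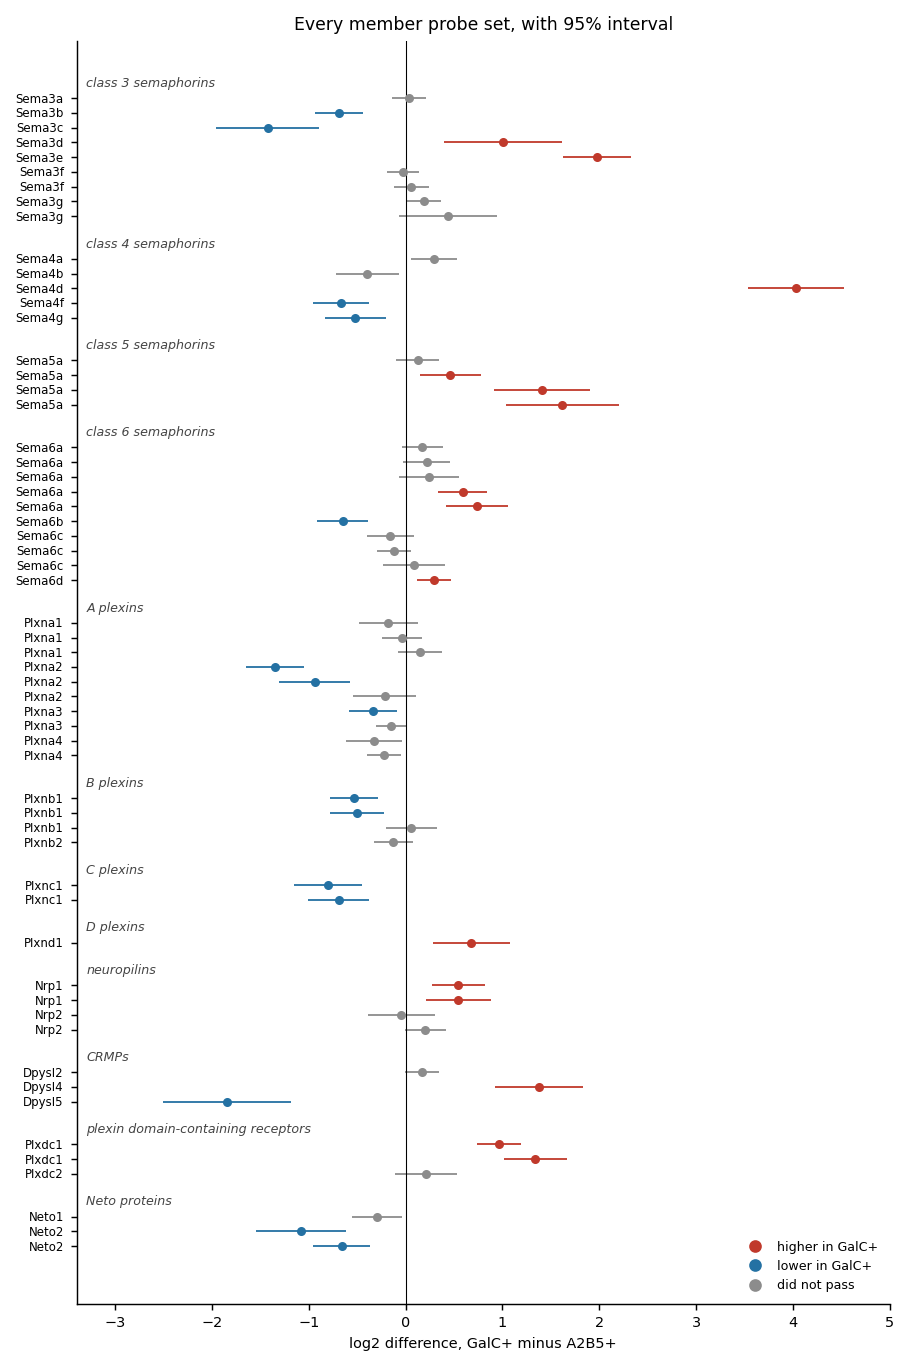
Log2 difference between GalC+ and A2B5+ for each of the 58 member probe sets (horizontal axis), 1 line per probe set and grouped by family; points are the fitted difference, bars its 95% interval, n = 4 and 4 arrays. Sema4d stands at 4.03, and the plexins lie mostly left of 0.

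**Figure D2:**
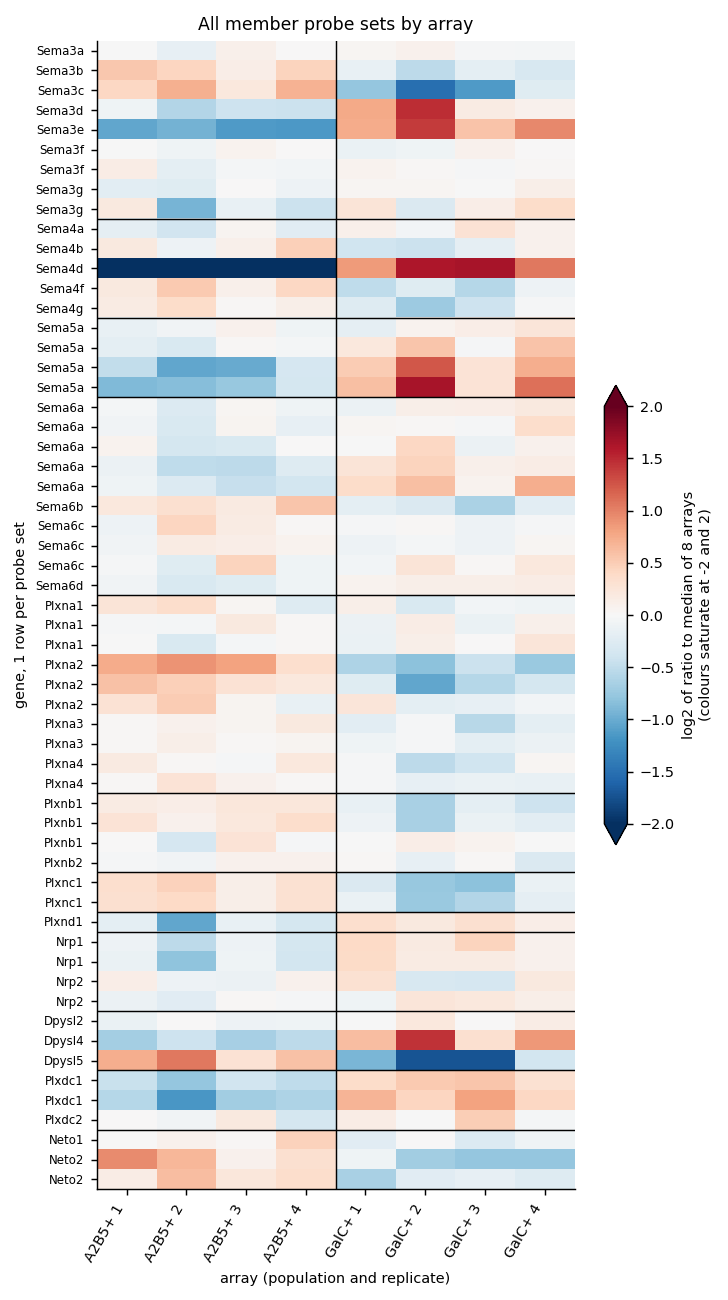
Log2 of the ratio to the median of the 8 arrays for each member probe set (lines, grouped by family as in the plot of differences) on each array (columns), with colours that saturate at -2 and 2. Sema4d, Sema3e, Sema5a and Dpysl4 change from blue to red between the populations, and Sema3c, Plxna2 and Dpysl5 from red to blue.

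Marker lists of several cell types differed between the populations. The 11 measured markers of myelinating oligodendrocytes were all higher in GalC+, with list means (mean log2 ratio per array) of -2.75 to -1.84 on A2B5+ arrays and 0.74 to 1.4998 on GalC+ arrays. Among 10 progenitor markers 3 genes were lower (Nxph1, Pdgfra and Olig1) and 1 higher (Vcan), with list means of 0.05 to 0.19 against -0.43 to -0.07. The called share of progenitor probe sets was 31.6%, near the 29.7% of single-symbol probe sets, whereas it was 74.1% for the neuron list. Neuron markers were lower in 13 of 18 genes and higher in 1 (0.31 to 0.57 against -1.07 to -0.34). Macrophage and microglia markers were higher in 15 of 18 genes (-1.26 to -0.43 against 0.17 to 0.68), mural cell markers in 10 of 11 (-0.90 to -0.45 against 0.28 to 0.84) and fibroblast markers in 8 of 9 (-1.15 to -0.36 against 0.27 to 0.70). The macrophage and microglia list did not move alike. Its largest differences were those of Cd163 (5.41) and Mrc1 (4.12), markers of macrophages. Cx3cr1 (-0.14), P2ry12 (-0.35 and -0.14), both markers of microglia, and Itgam (0.73) did not pass. No gene among 11 endothelial markers passed (-0.84 to 0.23 against -0.76 to 0.14), and 2 of 10 astrocyte markers were lower (-0.16 to 0.15 against -0.29 to 0.25). The endothelial and astrocyte lists were each lowest on replicate 2 of both populations. Because the ratios carry no level, whether a marker was absent cannot be read. The part of these cell types in the results on members was not tested.

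**Figure D3:**
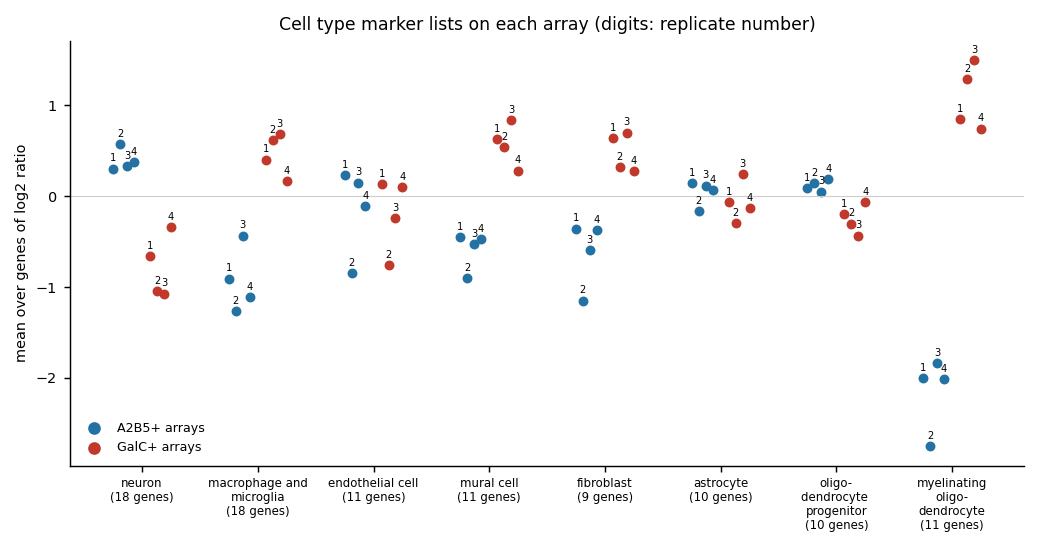
Mean log2 ratio over the measured genes of each cell type marker list (vertical axis) on each array; blue points are A2B5+ and red points GalC+ arrays, with the replicate number beside each point. The populations are apart for the neuron, macrophage, mural cell, fibroblast, progenitor and myelinating lists and overlap for the endothelial and astrocyte lists.

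Among the secreted class 3 semaphorins, Sema3e and Sema3d were higher in GalC+ cells, Sema3c and Sema3b were lower, and Sema3a, Sema3f and Sema3g did not pass. Sema3e, which binds plexin D1 without needing a neuropilin, had ratios of 0.488, 0.522, 0.458 and 0.453 on the A2B5+ arrays (replicates 1 to 4, as in all lists of 4) and 1.68, 2.64, 1.48 and 1.95 on the GalC+ arrays. The A2B5+ values lay within a narrow band and every GalC+ value was above it. The difference was 1.98 ± 0.16 SE (adjusted p = 3.35e-05), place 238 of 31042 from the top. Sema3d, another secreted ligand, had ratios of 0.940, 0.663, 0.750 and 0.742 in A2B5+ and 1.69, 2.79, 1.12 and 1.06 in GalC+. GalC+ replicate 2 was far above the others, and replicates 3 and 4 stood just above the highest A2B5+ value. Its difference of 1.00 ± 0.27 (adjusted p = 0.0218) did not pass without A2B5+ replicate 2, A2B5+ replicate 4 or GalC+ replicate 1 (highest adjusted p = 0.0631), nor with the spread estimated for each probe set alone (0.0903).

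Sema3c, known to attract growing cortical axons, had ratios of 1.33, 1.63, 1.16 and 1.62 in A2B5+ and 0.582, 0.350, 0.454 and 0.842 in GalC+. No GalC+ array reached the lowest A2B5+ array, and the difference was -1.43 ± 0.24 (adjusted p = 0.00183), place 209 from the bottom. Sema3b was 1.61-fold lower (-0.69 ± 0.11, adjusted p = 0.00157), with ratios of 1.10 to 1.45 against 0.696 to 0.898. The neuron and progenitor list means were lower in GalC+ beside both. Sema3a, the ligand of neuropilin 1, had ratios of 0.991, 0.893, 1.07 and 1.01 against 1.03, 1.07, 0.983 and 0.977. The populations overlapped and the difference was 0.04 (95% interval -0.14 to 0.21). The 2 probe sets of Sema3f, the ligand of neuropilin 2, gave -0.03 (-0.19 to 0.14) and 0.06 (-0.12 to 0.24), from ratios of 0.947 to 1.05 against 0.914 to 1.06 and of 0.878 to 1.10 against 0.984 to 1.05. Sema3g, known from blood vessels, gave 0.44 (-0.06 to 0.95) and 0.19 (0.01 to 0.36), with adjusted p of 0.186 and 0.106; the latter passed without A2B5+ replicate 3 (0.0468). Its wider probe set was lowest on replicate 2 in both populations (0.525 in A2B5+, 0.816 in GalC+), where the endothelial and astrocyte lists were lowest too.

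The sequences before the first RefSeq start of the secreted ligands that were higher are shown. Both lie on chromosome 4, as does Sema3c, which was lower (rat assembly GRCr8, sequences from RefSeq, 5′ to 3′ on the strand of the gene). Capitals mark any match to the motifs CTGGNAC, named for Myrf, ACAAAG and AACAAT, named for Sox factors, and CAGCTG, an E-box, on either strand.
Sema3e, chr4:21510450-21510624, minus strand: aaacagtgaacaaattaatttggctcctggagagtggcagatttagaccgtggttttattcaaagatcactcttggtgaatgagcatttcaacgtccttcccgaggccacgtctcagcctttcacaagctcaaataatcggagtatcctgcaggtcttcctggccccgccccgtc
Sema3d, chr4:23460972-23461221, minus strand: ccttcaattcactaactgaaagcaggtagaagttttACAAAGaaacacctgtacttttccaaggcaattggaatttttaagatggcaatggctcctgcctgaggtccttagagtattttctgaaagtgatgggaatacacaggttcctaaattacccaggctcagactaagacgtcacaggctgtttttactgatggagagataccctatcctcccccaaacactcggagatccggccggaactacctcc
Sema3d held 1 ACAAAG and Sema3e held no match. Over the first 250 bases of each promoter sequence, ACAAAG was found in 16.3% of 33469 rat promoters, AACAAT in 10.3%, CTGGNAC in 14.8% and CAGCTG in 11.97%. These windows do not always lie before the first RefSeq start of the gene. Among the 23 members with a promoter in the table, the counts were 4 (17.4%), 1 (4.35%), 5 (21.7%) and 6 (26.1%). ACAAAG was in Sema3d (called higher), Plxnb1 and Sema4f (lower) and Plxnb2 (no call), and AACAAT in Sema3c (lower). The 5 with CTGGNAC were Dpysl4, Plxnd1, Sema6a and Sema6d (higher) and Plxna2 (lower). The 6 with CAGCTG were Sema6a and Sema6d (higher), Plxnb1 (lower), and Nrp2, Sema3g and Sema6c (no call). The windows of Plxnd1, Sema6d, Plxna2, Plxnb1, Plxnb2, Sema3c, Nrp2 and Sema6c held no base before the first RefSeq start. A match is a description of letters and not of binding.

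Sema4d had the largest difference of the 58 probe sets. This membrane ligand of plexin B1, also made by lymphocytes, had ratios of 0.163, 0.104, 0.189 and 0.160 on the A2B5+ arrays and 1.81, 3.07, 3.15 and 2.09 on the GalC+ arrays. The lowest GalC+ array was far above the highest A2B5+ array. The difference was 4.03 ± 0.22 SE (adjusted p = 4.04e-06), place 26 of all 31042 probe sets. Within GalC+, replicates 2 and 3 were highest for Sema4d and for the myelinating list (list means 1.29 and 1.4998, against 0.85 and 0.74 on replicates 1 and 4), and also for the macrophage list (0.62 and 0.68, against 0.40 and 0.17). The other class 4 genes moved less or the other way. Sema4f was 1.59-fold lower (-0.67 ± 0.13, adjusted p = 0.00409, ratios of 1.07 to 1.44 against 0.675 to 0.929). Sema4g was 1.43-fold lower (-0.52 ± 0.14, adjusted p = 0.0223), a call that was lost without A2B5+ replicate 2 or GalC+ replicate 3 (highest adjusted p = 0.0654) and with the spread of the probe set alone (0.0753). Sema4a, which acts in immune cells, gave 0.29 (95% interval 0.05 to 0.53, adjusted p = 0.0709), and Sema4b gave -0.40 (-0.72 to -0.07, adjusted p = 0.0700). Sema4a passed without A2B5+ replicate 3 (adjusted p = 0.0242), and Sema4b without A2B5+ replicate 2 or GalC+ replicate 4 (lowest adjusted p = 0.0217).

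Sema5a, a membrane protein with thrombospondin repeats, was read by 4 probe sets that did not move alike. The leading one had ratios of 0.541, 0.552, 0.589 and 0.786 in A2B5+ and 1.52, 3.12, 1.21 and 2.14 in GalC+. All GalC+ arrays were above all A2B5+ arrays, with replicate 2 highest and replicate 3 lowest, and the difference was 1.62 ± 0.26 (adjusted p = 0.00147). A further probe set gave 1.41 ± 0.22 (adjusted p = 0.00135) from 0.710, 0.488, 0.498 and 0.791 against 1.42, 2.36, 1.21 and 1.66, with the same arrays highest and lowest in GalC+. The other two gave 0.46 ± 0.14 (adjusted p = 0.0340), with overlap between the populations, and 0.12 (95% interval -0.10 to 0.35). The call at 0.46 did not hold in 5 of 8 fits with an array removed (up to 0.0949), the exceptions being A2B5+ replicate 3 and GalC+ replicates 1 and 3, nor with its own spread alone (0.0957). The mean of the 4 probe sets was 0.90 ± 0.15 (adjusted p over genes = 0.00132).

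Among the class 6 semaphorins, Sema6a and Sema6d were higher, Sema6b was lower and Sema6c did not pass. Sema6a, a ligand of plexins A2 and A4, had ratios of 0.947, 0.827, 0.726 and 0.778 in A2B5+ and 1.29, 1.52, 1.05 and 1.66 in GalC+ by its leading probe set. The populations were apart, with GalC+ replicate 3 closest to A2B5+, and the difference was 0.74 ± 0.14 (adjusted p = 0.00398). A further probe set gave 0.59 ± 0.11 (adjusted p = 0.00397), and the other 3 gave 0.17, 0.22 and 0.24 without passing; the mean of all 5 was 0.39 ± 0.09 (adjusted p over genes = 0.00889). Sema6d, a ligand of plexin A1, was 1.22-fold higher (0.29 ± 0.08, adjusted p = 0.0190), from ratios of 0.807 to 0.949 against 1.05 to 1.11. Without A2B5+ replicate 2 its adjusted p was 0.0509. Sema6b, a ligand of plexin A4, was 1.57-fold lower (-0.65 ± 0.12, adjusted p = 0.00303, ratios of 1.13 to 1.47 against 0.647 to 0.870). The 3 probe sets of Sema6c gave -0.16 to 0.09.

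**Figure D4:**
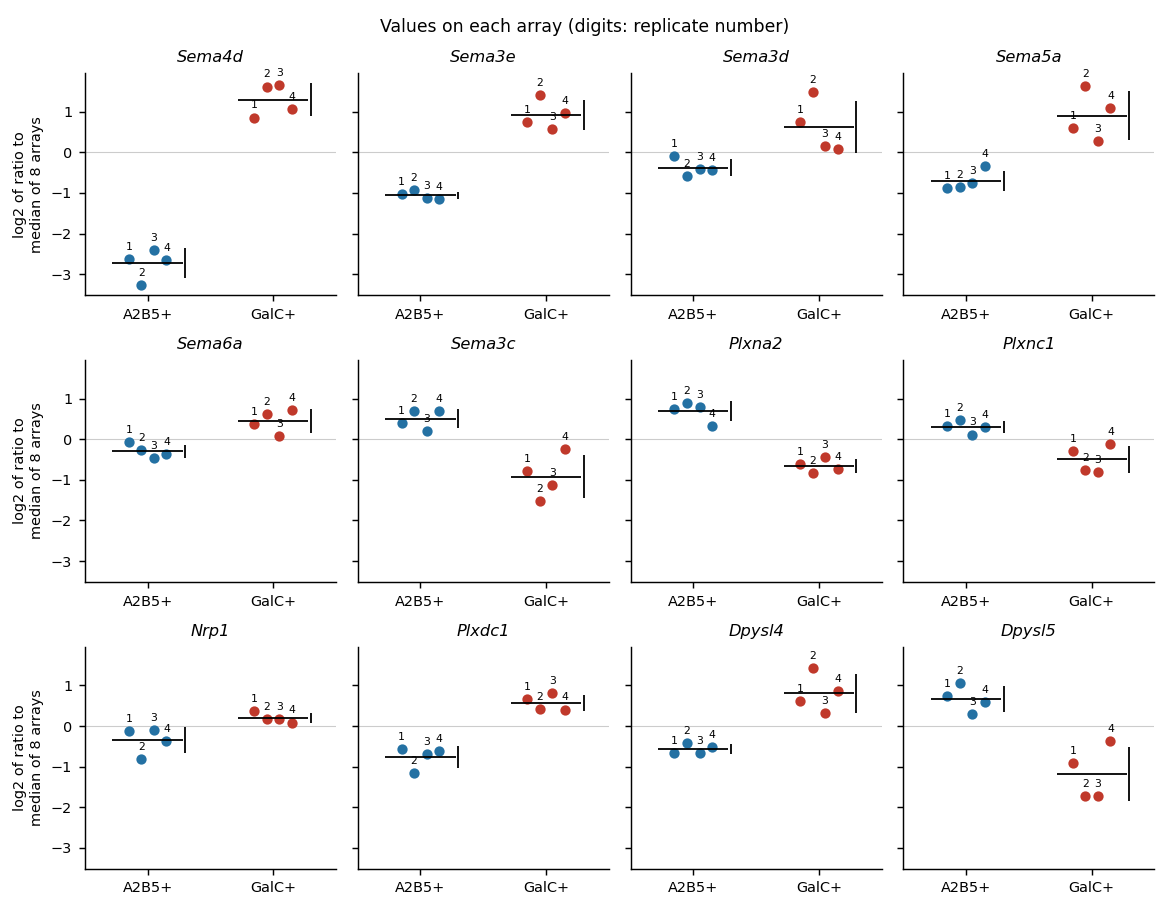
Log2 of the ratio to the median of the 8 arrays (vertical axis) on each A2B5+ (blue) and GalC+ (red) array for 12 members, each by its probe set with the largest absolute difference; digits are replicate numbers, horizontal lines means and vertical bars SD (n = 4). In Sema3e, Sema5a and Dpysl4 the highest GalC+ array is replicate 2 and the lowest replicate 3.

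The plexins that changed were lower in GalC+ cells, apart from plexin D1. Of 17 plexin probe sets 7 were lower, 1 was higher and 9 did not pass, with a median of -0.22. These shares were 41.2% lower and 5.88% higher, against 14.3% and 15.4% of single-symbol probe sets. Plxna2, a receptor of Sema6a and, with neuropilins, of class 3 ligands, had ratios of 1.68, 1.86, 1.74 and 1.26 in A2B5+ and 0.652, 0.565, 0.739 and 0.598 in GalC+ by its leading probe set. The populations were well apart, and the difference was -1.35 ± 0.13 (adjusted p = 1.08e-04). A further probe set gave -0.94 ± 0.17 (adjusted p = 0.00244) from 1.51, 1.39, 1.22 and 1.16 against 0.845, 0.486, 0.672 and 0.787, and the other one gave -0.22 (95% interval -0.54 to 0.11). The mean of the 3 was -0.84 ± 0.13 (adjusted p over genes = 8.00e-04).

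The other A plexins differed little. Plxna4, a receptor of Sema3a and class 6 ligands, had ratios of 1.015, 1.204, 1.067 and 1.021 against 0.985, 0.888, 0.911 and 0.903 by a probe set whose populations did not overlap, with a difference of -0.22 ± 0.08 that missed the threshold (adjusted p = 0.0663). Its other probe set had 1.13, 1.01, 0.988 and 1.16 against 0.979, 0.695, 0.760 and 1.02, with overlap and -0.33 ± 0.13 (adjusted p = 0.0937). The latter passed without GalC+ replicate 4 (0.0381), and the mean of both passed over genes (-0.28, adjusted p = 0.0310). Plxna3, a receptor of Sema3f with neuropilin 2, was 1.26-fold lower by 1 of 2 probe sets (-0.34 ± 0.11, adjusted p = 0.0470), a call lost in 7 of 8 fits without 1 array (highest adjusted p = 0.121) and with its own spread alone (0.0963). The exception was the fit without GalC+ replicate 2. The 3 probe sets of Plxna1 gave -0.18, -0.04 and 0.15.

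Plxnb1, the receptor of Sema4d, was lower by 2 of 3 probe sets. One had ratios of 1.12, 1.10, 1.17 and 1.18 in A2B5+ and 0.903, 0.636, 0.878 and 0.754 in GalC+. Each A2B5+ value was above each GalC+ value (-0.54 ± 0.11, 1.45-fold, adjusted p = 0.00550). The other called one gave -0.51 ± 0.12 (adjusted p = 0.0132; 0.0507 with the spread of the probe set alone), and the last gave 0.06 (95% interval -0.20 to 0.32). Plxnb2 gave -0.13 (-0.33 to 0.07). Plxnc1, the receptor of the membrane-anchored semaphorin Sema7a and known from myeloid cells as well as neurons, was lower by both probe sets. The leading one had ratios of 1.26, 1.38, 1.08 and 1.24 in A2B5+ and 0.815, 0.592, 0.568 and 0.917 in GalC+. Replicates 2 and 3 were lowest in GalC+, and the difference was -0.80 ± 0.16 (adjusted p = 0.00416); the other gave -0.69 ± 0.14 (adjusted p = 0.00524). Macrophage markers moved the opposite way (15 of 18 genes higher), and the neuron and progenitor list means moved the same way.

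Plxnd1, the receptor of Sema3e and a plexin of blood vessels, was the plexin that was higher. It had ratios of 0.875, 0.486, 0.902 and 0.781 in A2B5+ and 1.26, 1.14, 1.25 and 1.10 in GalC+. A2B5+ replicate 2 was far below the other arrays. It was also the lowest array for the mural cell (-0.90), fibroblast (-1.15), macrophage (-1.26), myelinating (-2.75) and endothelial (-0.84) lists. For the endothelial list GalC+ replicate 2 was nearly as low (-0.76), although its Plxnd1 ratio was not. Among A2B5+ arrays replicate 2 was lowest for the astrocyte list (-0.16) too, but not for the neuron (0.57) or progenitor (0.14) lists. The difference for Plxnd1 was 0.68 ± 0.18 (1.60-fold, adjusted p = 0.0179, and 0.0733 with the spread of the probe set alone). Nrp1, the coreceptor of Sema3a and of vascular endothelial growth factor, was higher by both probe sets. One had 0.937, 0.695, 0.935 and 0.780 in A2B5+ and 1.32, 1.13, 1.36 and 1.06 in GalC+, again with A2B5+ replicate 2 lowest and no overlap (0.55 ± 0.12, 1.46-fold, adjusted p = 0.00860). The other gave 0.55 ± 0.15 (adjusted p = 0.0225), from 0.916, 0.574, 0.938 and 0.776 against 1.30, 1.12, 1.12 and 1.06, and did not pass without A2B5+ replicate 4 or GalC+ replicate 1 (highest adjusted p = 0.0592) or with its own spread alone (0.0777). No endothelial marker passed, whereas macrophage, mural cell, fibroblast and myelinating markers were higher. Nrp2, the coreceptor of Sema3f, gave 0.20 (95% interval -0.01 to 0.41) and -0.05 (-0.39 to 0.30) and did not pass; the first probe set passed without GalC+ replicate 1 (adjusted p = 0.0477).

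Read as ligand and receptor pairs, partners moved in both ways. Sema3e and its receptor Plxnd1 were both higher in GalC+ (1.98 and 0.68). Sema4d was higher and its receptor Plxnb1 lower (4.03 against -0.54 and -0.51, with a further Plxnb1 probe set at 0.06). Sema6a was higher and its receptor Plxna2 lower (0.74 and -1.35 by their leading probe sets, 0.39 and -0.84 as means). For Sema3a and Sema3f no difference was called, while Nrp1 was higher and Nrp2 did not pass.

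The CRMPs, cytosolic proteins that bind tubulin and relay Sema3a signals, did not move together: 1 was lower, 1 higher and 1 did not pass. Dpysl5 (CRMP5) had ratios of 1.66, 2.07, 1.22 and 1.505 in A2B5+ and 0.532, 0.303, 0.302 and 0.779 in GalC+. The populations were apart, with GalC+ replicates 2 and 3 lowest. They were also lowest for the neuron list (-1.04 and -1.07, against -0.66 and -0.34 on replicates 1 and 4). So they were for the progenitor list (-0.30 and -0.43, against -0.19 and -0.07) and the endothelial list (-0.76 and -0.24, against 0.14 and 0.10). The difference for Dpysl5 was -1.84 ± 0.30 (adjusted p = 0.00146), place 79 from the bottom. Dpysl4 (CRMP3) had 0.626, 0.753, 0.629 and 0.696 in A2B5+ and 1.53, 2.71, 1.25 and 1.83 in GalC+. Its A2B5+ values were close together and all GalC+ values above them, with a difference of 1.38 ± 0.20 (2.60-fold, adjusted p = 9.27e-04). Dpysl2 (CRMP2), the founding member, had 0.908, 1.01, 0.934 and 0.943 against 0.995, 1.15, 1.00 and 1.11. One A2B5+ value lay among the GalC+ values, and the difference was 0.17 (95% interval -0.01 to 0.34, adjusted p = 0.146). Outside the members, the relatives Crmp1 (-1.93 ± 0.26, adjusted p = 5.65e-04) and Dpysl3 (-1.72 ± 0.42, adjusted p = 0.0133) were lower, the latter by 1 of 2 probe sets; the other gave 0.11, and with the spread of the probe set alone the call of Dpysl3 was lost (0.0714).

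The sequences before the first RefSeq start of Dpysl4 and Dpysl5 are shown because these relatives moved in opposite directions (GRCr8, RefSeq, capitals as above).
Dpysl4, chr1:203312463-203312645, plus strand: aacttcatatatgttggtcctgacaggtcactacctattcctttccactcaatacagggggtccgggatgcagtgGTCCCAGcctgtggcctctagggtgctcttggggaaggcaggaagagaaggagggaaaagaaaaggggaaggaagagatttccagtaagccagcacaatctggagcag
Dpysl5, chr6:31379349-31379598, minus strand: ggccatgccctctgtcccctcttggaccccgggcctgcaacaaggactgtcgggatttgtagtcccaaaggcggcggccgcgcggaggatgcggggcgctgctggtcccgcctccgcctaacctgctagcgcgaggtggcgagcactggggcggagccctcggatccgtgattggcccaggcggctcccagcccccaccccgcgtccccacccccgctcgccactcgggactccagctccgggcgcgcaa
Dpysl4 held 1 match to CTGGNAC, on the reverse strand, and Dpysl5 held none of the motifs.

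Plxdc1, a membrane receptor with a plexin-like domain first described in tumour vessels, was higher by both probe sets. The leading one had ratios of 0.674, 0.447, 0.620 and 0.649 in A2B5+ and 1.59, 1.34, 1.75 and 1.33 in GalC+. The populations were far apart (1.34 ± 0.14, 2.53-fold, adjusted p = 1.87e-04), and A2B5+ replicate 2 was again the lowest array. The other gave 0.735, 0.588, 0.764 and 0.705 against 1.29, 1.44, 1.48 and 1.24, a difference of 0.97 ± 0.10 (adjusted p = 1.62e-04). Macrophage, mural cell, fibroblast and myelinating markers were higher beside it, and no endothelial marker passed. Plxdc2 gave 0.21 (95% interval -0.11 to 0.53). Neto2, an auxiliary subunit of kainate receptors that shares extracellular domains with neuropilins, had 1.94, 1.59, 1.06 and 1.24 in A2B5+ and 0.942, 0.619, 0.583 and 0.585 in GalC+. GalC+ replicate 1 stood above the other 3 but below all A2B5+ arrays (-1.09 ± 0.21, adjusted p = 0.00378). Its other probe set gave -0.66 ± 0.13 (adjusted p = 0.00484), and the neuron and progenitor list means were lower beside it. Neto1 gave -0.29 (-0.55 to -0.04, adjusted p = 0.0910).

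Among the other genes of the pathway, signalling proteins below the plexins were more often higher than lower in GalC+ cells. Over all lists 45.4% of 108 pathway probe sets passed, against 29.7% of single-symbol probe sets. The lists were chosen with earlier results of these data known, so their shares are not independent of the values. Of 79 probe sets for 44 measured genes, 29 were higher (36.7%) and 8 lower (10.1%), with a median of 0.20, against 15.4% and 14.3% of single-symbol probe sets. The Ras relative Rras2 rose most, by 2.01 ± 0.13 (4.02-fold) and 1.52 ± 0.12 in its 2 probe sets. Rap1a, a GTPase on which the GTPase-activating domain of plexins acts, rose by 1.89 ± 0.11 and 1.10 ± 0.10. The neuropilin-binding adaptor Gipc1 (2.30-fold), Dock10 (1.05 ± 0.09), Micall1 (1.04 ± 0.11) and the small GTPase Rnd2 (1.00 ± 0.15) were higher too. A further probe set of Dock10 was higher by 0.32 (adjusted p = 0.0272), a call that did not hold without A2B5+ replicate 1, 2 or 4 or GalC+ replicate 2 or 4 (up to 0.0773) or with its own spread alone (0.0516), and one of Micall1 gave 0.18 without passing. Rnd3, which is related to Rnd2, fell by 1.05 to 1.29 in all 3 of its probe sets. Cdc42 was lower by 1 probe set (-1.35 ± 0.17), while the other two gave 0.20 and 0.24 without passing. Of 26 probe sets for 18 coreceptors and partner ligands, 3 were higher (11.5%) and 7 lower (26.9%), at a median of -0.09. L1cam, an adhesion molecule that joins Nrp1 in the Sema3a receptor, fell by 1.18 ± 0.14. The integrin subunit Itga1 was 2.17-fold higher (1.12 ± 0.33, adjusted p = 0.0310), a call lost without A2B5+ replicate 3 or GalC+ replicate 1, 3 or 4 (highest adjusted p = 0.0783) and with its own spread alone (0.112).

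The kinase Fyn, which signals below plexin A2 and acts in myelination, was higher by both probe sets (0.83 ± 0.23 and 0.55 ± 0.15, adjusted p = 0.0220 and 0.0208) and is named outside the rule for its role. One call was lost without A2B5+ replicate 2 or 3 and the other without A2B5+ replicate 1 or 2 (highest adjusted p = 0.0587), and both with the spread of the probe set alone (0.0881 and 0.0742). Without A2B5+ replicate 2, 32 pathway probe sets were called in place of 49. The share of all probe sets called in that fit is not given here, so the drop cannot be read as particular to the pathway. The neuron and progenitor list means were lower beside L1cam and Rnd3.

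**Figure D5:**
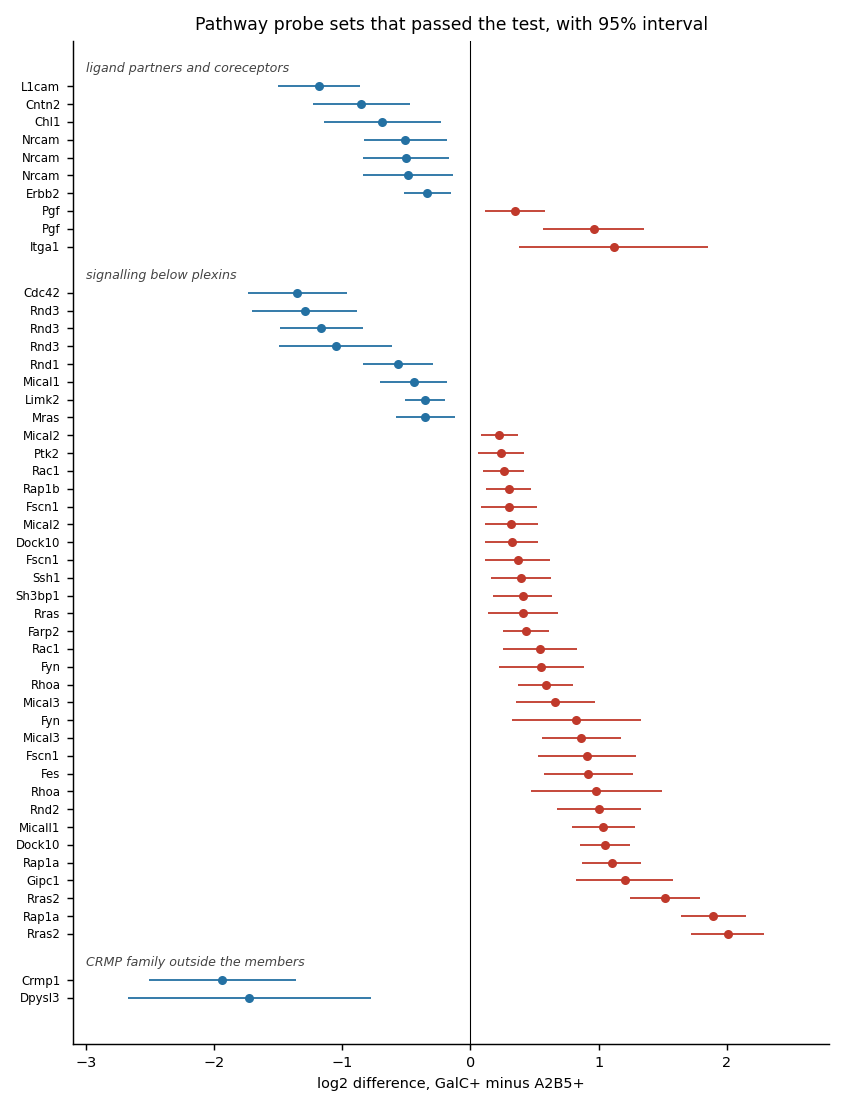
Log2 difference between GalC+ and A2B5+ (horizontal axis) for the 49 pathway probe sets that passed, 32 higher (red) and 17 lower (blue); points are the fitted difference and bars its 95% interval, n = 4 and 4 arrays. Most signalling probe sets lie right of 0, with Rras2 and Rap1a farthest, and most coreceptors left of it.

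Probe sets of one gene did not always move together. Of 15 member genes with several probe sets, 10 had the same call in all and 5 did not, namely Sema5a, Sema6a, Plxna2, Plxna3 and Plxnb1. Probe sets of a gene share the same RNA and are not replicates, and which transcripts each one reads was not analysed here.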

How the data were processed

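RMA is the summary method named in the submitters' processing notes; no source used here gives its version. The deposited values are ratios: in each of the 31099 probe sets the median over the 8 arrays lies between 0.9995 and 1, as read from the values, so levels were removed and dim probe sets could not be set aside. Near background such a ratio understates a fold.

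Ratios were taken to log2 with no pseudocount, and 57 control probe sets were left out. Of the remaining 31042, 20826 had 1 gene symbol in the platform table, 436 several and 9780 none. GalC+ and A2B5+ arrays were compared with limma 3.58.1 in R 4.3.3 (two-sided, Benjamini-Hochberg adjustment over all 31042). The 4 arrays per population limit the precision (median SE 0.099). The fit was also run on simulated data with noise drawn independently for each array. That run cannot show how effects shared between arrays would act on the calls.

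Values on each array are given for members called without overlap and with an absolute log2 difference of at least 0.7, and for members of known role in oligodendrocytes. Sema3f, 1 of the latter, is given by its ranges. Plxnb1 and Plxnd1 have values on each array although they fall under 0.7. Pathway genes are named from called differences of at least 1. Kdr and Flt1 stand among both partners and endothelial markers. Lists and rules, among them the rule on names that picked the members, were chosen with earlier results of these data known. As alternatives, the fit was rerun with quantile normalization, median centring, a replicate block, other priors, array weights, an adjusted p under 0.01, a test against 1.2-fold, 1 value per gene and each array left out.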

Additional observations from a re-analysis of the deposited data

Results flagged for a closer look

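In 2 of 116 groups of 4 values (58 probe sets in 2 populations), 1 array lay apart from the other 3 by a gap beyond Dixon's 95% critical value; chance gives about 1 in 20 such groups. GalC+ replicate 1 had a ratio of 0.942 for the leading probe set of Neto2, against 0.583 to 0.619 on the other GalC+ arrays. GalC+ replicate 4 had a ratio of 1.27 for a probe set of Sema6a that did not pass, against 0.985 to 1.02 on the others.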

How the results depend on the processing

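Of 30 called member probe sets, 24 were called in all 8 fits that left out 1 array and 6 lost their call in some. Over those fits the member probe sets higher numbered 12 to 17 and those lower 13 to 16, and member genes called 18 to 22 (8 to 12 higher, 9 to 12 lower). Pathway probe sets called numbered 32 (without A2B5+ replicate 2) to 47, with 20 to 33 higher and 11 (without A2B5+ replicate 1) to 17 lower. Tested against a fold of 1.2, which asks for more than a difference from 0, 8 member probe sets were higher and 8 lower, in 13 genes (6 higher, 7 lower), and 21 pathway probe sets were called (13 higher, 8 lower). At an adjusted p under 0.01, 24 pathway probe sets were called (15 higher, 9 lower). With the spread of each probe set alone, 10 pathway probe sets were lower. The shares of all probe sets called under the alternatives are not given here. A change in these counts therefore cannot be read as particular to members or pathway genes. With the replicate block 17 member probe sets were higher and 17 lower, in 25 genes; those gained were Sema4b (adjusted p = 0.00924), Sema4a (0.0227), Plxna4 (0.0274) and Sema3g (0.0305). The labels do not tie equal numbers to a litter, so the block was not taken as the design. Deviations from the population means correlated at 0.40, 0.09, 0.30 and 0.17 for pairs of the same number. For pairs of different numbers the correlations ran from -0.26 to 0.14. Whether equal numbers share a litter or a batch was not tested. No called member changed sign. Uncalled probe sets did, under quantile normalization for Sema6c (-0.025), Plxnb1 (-0.031) and Sema3a (-0.00989). With a gene's probe sets averaged, the sign differed from that of a single one for Sema6c (-0.064), Plxna1 (-0.022), Sema3f (0.016), Nrp2 (0.079) and Plxnb1 (-0.33). With the probe set of largest variance it did for Nrp2 (-0.045), Sema6c (0.088), Plxna1 (-0.18), Sema3f (0.059) and Plxnb1 (-0.54). Over the fits without 1 array, values ranged from -0.066 to 0.0067 for Sema3f, -0.16 to 0.055 for Nrp2, -0.045 to 0.16 for Plxnb1, -0.013 to 0.074 for Sema3a and -0.083 to 0.018 for Plxna1. The cause was not tested. With no level in the values, signal over background could not be judged.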
